A study of Zea mays with 6 samples.

Results

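The D-type cyclins, the cyclin-dependent kinase gene cdc2 and the gene CDC5 of maize were followed in leaf tissue with and without chlorophyll. They were chosen by name: every probe set paired with exactly 1 gene whose symbol or RefSeq synonym is cycD1, cycD2, cdc2 or CDC5. This gave 4 of the 1108 genes that could be named on the array, read by 5 of its 17555 probe sets, since cdc2 had 2. Plants of the maize line A661 spent 3 weeks at 15 °C and then 1 week at 25 °C. Their leaf 3 then had a distal section lacking chlorophyll (CL) and a proximal section holding it (CC). From each section 2 cm next to the transition were taken in 3 biological replicates, with CC as the control, and hybridised to 6 single-colour Affymetrix arrays. The plants of both groups share the line, the leaf number, the light and both temperature periods, and CL was the distal section on every array. Chlorophyll content therefore cannot be told apart from position along the leaf, or from tissue age, since grass leaves grow from the base. The temperature at which each section formed is not given, so it may differ too.

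Plant cells enter division when D-type cyclins, which are made in response to sugars and hormones, bind a cyclin-dependent kinase. The active pair phosphorylates retinoblastoma-related protein, which releases E2F factors and lets genes for DNA synthesis be transcribed. The origin recognition complex marks where DNA copying starts, PCNA clamps the polymerase to DNA, and A- and B-type cyclins carry the cell through mitosis. In a grass leaf, cells divide at the base and leave division as they move outward. Of the 4 genes, cdc2 is by name the kinase and cycD1 and cycD2 are its possible partners. The name CDC5 stands for a polo-type kinase in budding yeast but for a Myb-type protein of the splicing machinery in Arabidopsis and fission yeast. The deposited values and annotation do not settle which of these the maize gene encodes, so it is called CDC5 here and not a kinase.

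Values are log2 RMA expression, a background-corrected and normalized brightness, so a difference of 1 is a doubling. Array medians lay between 6.31 and 6.36 in CL and between 6.29 and 6.30 in CC, so every CL median was above every CC median. Arrays of a section correlated at 0.989 to 0.995 over probe sets and arrays of different sections at 0.963 to 0.982, with replicate 1 of CL and replicate 1 of CC the closest pair between sections. Tests were limma's moderated linear model over all probe sets, with Benjamini-Hochberg adjustment over all 17555 and a threshold of 0.05. In RNA from whole tissue, fewer cells of a type and less RNA per cell cannot be told apart.

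Expression of cycD2 rose in the section without chlorophyll. That of cdc2 and CDC5 rose by calls that depended on single arrays, and for cdc2 on 1 of its 2 probe sets. The change of cycD1 pointed the other way and did not pass. On the probe set scale, 3 of the 5 were higher in CL and 0 were lower. Across the array 15.9% of all probe sets were called higher in CL and 15.2% lower. With 1 value per gene, 18.7% of the 1108 genes were called higher and 19.9% lower, and the median log2 change was 0.45 over the 4 genes and -0.08 over all genes. The groups did not overlap in 4 of the 5 probe sets, against 49.6% of all probe sets.

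The cyclin gene cycD2 (NCBI gene 541915) read 7.74, 7.58 and 7.64 on the CL arrays, against 6.97, 7.01 and 6.79 on the CC arrays. Every CL array lay above every CC array, with a gap of 0.57 between the nearest ones. The means were 7.65 ± 0.08 in CL, against 6.92 ± 0.12 in CC (n = 3 per section, SD), a log2 change of 0.73 (SE 0.10, 95% interval 0.50 to 0.96) and a 1.66-fold rise (limma adjusted p = 0.0037). Of all probe sets, 93.5% had a smaller or more negative change. The call held with any of the 6 arrays left out, with changes of 0.66 to 0.77.

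The other D-type cyclin gene, cycD1 (NCBI gene 541916), read 4.26, 4.26 and 4.47 on the CL arrays, against 4.52, 4.80 and 5.17 on the CC arrays. All CL arrays were below all CC arrays, but only by 0.05 between the nearest, and the CC arrays spread widely. Means were 4.33 ± 0.12 in CL, against 4.83 ± 0.32 in CC (n = 3 per section, SD). The log2 change of -0.50 (SE 0.17, 95% interval -0.90 to -0.11) did not pass, with a limma adjusted p of 0.0597. It passed without CC replicate 1, at -0.66 with an adjusted p of 0.0207, and was -0.33 without CC replicate 3. Its mean lay at the 31.6th percentile of all probe sets, toward the dim end, where RMA compresses differences.

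The changes of the D-type cyclins differed in sign. Within each array, cycD2 minus cycD1 was 3.48, 3.32 and 3.16 in CL, against 2.44, 2.21 and 1.62 in CC. The difference between their changes was therefore 1.23 on the log2 scale, with no overlap between sections. An exact two-sided permutation test gave p = 0.1, the smallest value that 3 arrays against 3 allow, so this design cannot reach 0.05. Leaving out 1 array moved the difference between 0.999 without CC replicate 3 and 1.41 without CC replicate 1.

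**Figure D1:**
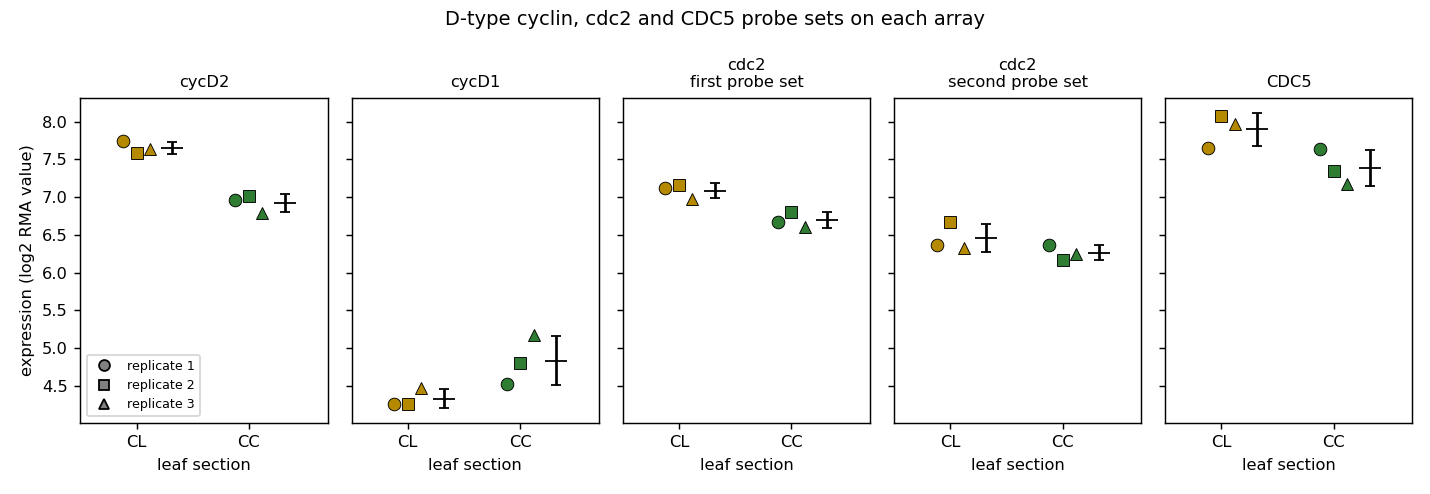
Expression (log2 RMA value, vertical axis) of the 5 probe sets on each of the 3 CL and 3 CC arrays, with marker shape for the replicate number and black bars for the mean ± SD. The CL points of cycD2 lie 0.57 or more above its CC points, while the nearest points of CDC5 are 0.01 apart and the sections overlap for the second cdc2 probe set.

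The kinase gene cdc2 (NCBI gene 542270) encodes the catalytic partner of the cyclins. Its brighter probe set read 7.12, 7.16 and 6.98 on the CL arrays, against 6.67, 6.81 and 6.60 on the CC arrays. The sections did not overlap. Means of 7.09 ± 0.10 in CL, against 6.69 ± 0.10 in CC (n = 3 per section, SD) gave a log2 change of 0.39 (SE 0.10, 95% interval 0.17 to 0.62), a 1.31-fold rise with a limma adjusted p of 0.0228. The call was lost without CL replicate 1 (adjusted p = 0.0546), CL replicate 2 (0.0712) or CC replicate 3 (0.0661), while the change stayed between 0.35 and 0.45.

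The second cdc2 probe set read 6.37, 6.67 and 6.33 on the CL arrays, against 6.37, 6.17 and 6.25 on the CC arrays. CL replicate 2 alone stood apart, and the other CL arrays fell within the range of CC. The log2 change was 0.19 (SE 0.12, 95% interval -0.09 to 0.47; limma adjusted p = 0.252) and did not pass, and it was 0.083 without CL replicate 2. The gap between the cdc2 probe sets (first minus second) averaged 0.63 ± 0.13 in CL, against 0.43 ± 0.18 in CC (n = 3 per section, SD), so their changes were 0.20 apart. An exact two-sided permutation test gave p = 0.2 where 3 arrays against 3 allow no p under 0.1, so it cannot show whether the probe sets changed alike. Averaging them gave 0.29 with an adjusted p of 0.0563, so the call of cdc2 rests on the brighter one. Whether probes also bind close copies of cdc2 was not tested.

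CDC5 (NCBI gene 541962) read 7.66, 8.08 and 7.97 on the CL arrays, against 7.64, 7.35 and 7.17 on the CC arrays. The sections touched at replicate 1, where CL was higher by 0.01, and were well apart in the other arrays. Means were 7.90 ± 0.22 in CL, against 7.39 ± 0.24 in CC (n = 3 per section, SD), a log2 change of 0.51 (SE 0.16, 95% interval 0.14 to 0.89) and a 1.43-fold rise with a limma adjusted p of 0.0481. That p was 0.138 without CL replicate 2, 0.141 without CL replicate 3, 0.127 without CC replicate 2 and 0.128 without CC replicate 3. In a fit chosen after the values were seen, without replicate 1 of both sections, the arrays that lay closest across sections, the change of CDC5 was 0.76 (adjusted p = 0.0111) and that of cdc2 0.36 (0.0896). Those arrays hold the touching values of CDC5, so leaving them out had to enlarge its change. The fit is no support for its call.

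**Figure D2:**
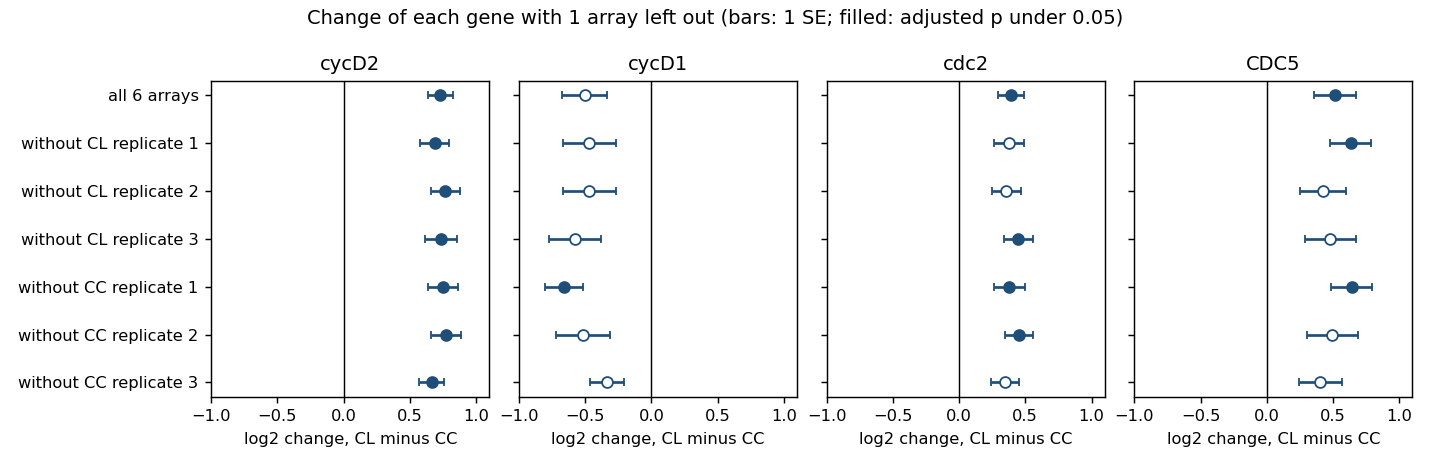
Log2 change (CL minus CC, horizontal axis) of the 4 genes over all 6 arrays and with each array left out, with bars of 1 SE and filled points where the limma adjusted p was under 0.05. cycD2 is filled in every row and stays between 0.66 and 0.77, cycD1 is filled only without CC replicate 1, and CDC5 loses its call in 4 of the 6 rows below the top and cdc2 in 3.

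The 4 genes lay at moderate places in the distribution of all changes. In absolute size, the change of cycD2 exceeded that of 88.0% of probe sets, that of CDC5 77.8%, that of cycD1 77.3% and that of the brighter cdc2 probe set 68.1%. None reached a doubling.

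**Figure D3:**
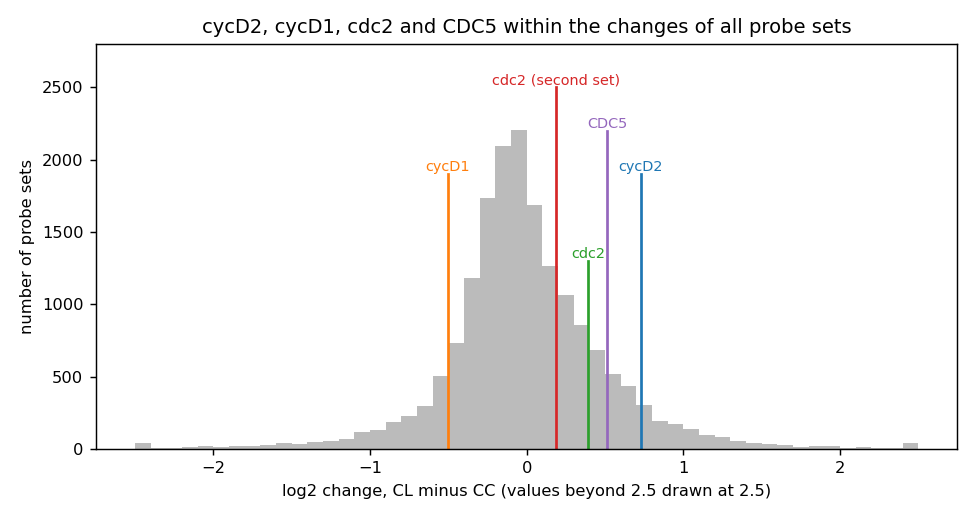
Number of probe sets (vertical axis) by log2 change, CL minus CC (horizontal axis, bins of 0.1, values beyond 2.5 drawn in the outermost bins), with lines at the 5 probe sets. The lines for cdc2, CDC5 and cycD2 lie at 0.39, 0.51 and 0.73 on the right shoulder and that for cycD1 at -0.50 on the left.

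The origin recognition genes, which encode subunits of the complex that licenses DNA copying, served as background. Of the 4 found, orc2 and orc3 rose and orc1 and orc4 did not pass, and 0 fell. Of all 1108 genes, 18.7% were called higher and 19.9% lower. The median change of the orc genes was 0.45, midway between orc4 (0.11) and orc2 (0.80), and no orc gene lay near it. Its match to the median over cycD1, cycD2, cdc2 and CDC5 is therefore not a sign of likeness. The orc3 gene (NCBI gene 542751) read 6.29, 6.93 and 6.53 in CL, against 5.69, 5.41 and 5.39 in CC, so the sections were apart by 0.60. Its log2 change was 1.08 (SE 0.17), a rise larger than that of cycD2, with a limma adjusted p of 0.0062. The orc2 gene (NCBI gene 541938) read 5.16, 4.78 and 4.91 in CL, against 4.17, 4.02 and 4.28 in CC, a log2 change of 0.80 (SE 0.12; adjusted p = 0.0057). Both calls held with any array left out. By contrast, orc4 averaged 6.28 ± 0.06 in CL, against 6.17 ± 0.19 in CC, and orc1 averaged 5.17 ± 0.13 in CL, against 5.10 ± 0.06 in CC (n = 3 per section, SD). The log2 changes of orc4 and orc1 were 0.11 (95% interval -0.16 to 0.38) and 0.06 (95% interval -0.16 to 0.29). Subunits of one complex thus had different calls, although the difference between their changes was not tested.

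Of 8 genes matched to DNA replication and S phase, 1 rose, 0 fell and 7 did not pass, with a median log2 change of 0.10. The gene that rose was pcna2, a sliding clamp gene, at 5.57 ± 0.06 in CL, against 5.06 ± 0.20 in CC (n = 3 per section, SD), a change of 0.51 (SE 0.12; limma adjusted p = 0.0179). Its adjusted p was 0.0594 without CL replicate 2 and 0.0642 without CL replicate 3. The other clamp gene, pcna1, averaged 6.80 ± 0.18 in CL, against 6.63 ± 0.07 in CC, and its change of 0.17 did not pass. Histone genes were next in order of p, his1a at -0.26 (adjusted p = 0.0764, and 0.0491 without CL replicate 1) and his2b5 at -0.20. The helicase genes MCM6 (0.09) and MCM7 (-0.28) were dim, ranking at percentile 14.0 for MCM6 and 4.26 for MCM7 by mean brightness. MCM7 passed without CC replicate 1 at -0.45 (adjusted p = 0.0358).

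The kinetochore and centromere list had 2 genes. CenpcA, which encodes a centromere protein of the inner kinetochore, read 6.04, 6.96 and 6.53 in CL, against 5.90, 5.20 and 5.25 in CC. It rose by 1.06 (SE 0.27; limma adjusted p = 0.0272), but the adjusted p was 0.0744 to 0.0885 without CL replicate 2, CL replicate 3, CC replicate 2 or CC replicate 3. A second, dimmer CenpcA probe set changed by 0.11 and did not pass. The gene for the centromeric histone, cenH3, had a log2 change of 0.34 (95% interval -0.16 to 0.83) and did not pass. A second, dimmer cenH3 probe set changed by -0.05 and did not pass either.

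Of 22 other genes matched to cell cycle names, 2 rose, 3 fell and 17 did not pass, with a median of -0.11. Several match by symbol alone: umi11 carries the name cyclotide, and the krp genes are kinesins by their second names. By name cks is a CMP-KDO synthetase, and what kip1 encodes was not settled here. Neither cks (0.23) nor kip1 (-0.11) passed. With kinesins, MAP kinases, umi11, cks and kip1 left out after the values were seen, 10 genes remained, of which 2 rose and 0 fell. Those 2 were DP2 at 0.69 (SE 0.13; limma adjusted p = 0.0102) and DP1 at 0.39 (SE 0.08; 0.0125, and 0.0598 without CL replicate 3). Their symbols do not show whether they are the dimerization partners of E2F. The largest change of the full list was that of umi11 (log2 change -5.36), and the kinesin genes krp15 (-0.88, SE 0.09) and krp6 (-0.73, SE 0.17) also fell. The call of krp6 was lost without CL replicate 2 (adjusted p = 0.0594) or CL replicate 3 (0.0722).

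The genes next to the cyclins in the pathway are given for their roles and fall outside the rule for named genes. RBR1 and RBR2 encode retinoblastoma-related proteins, the targets of D-type cyclin kinases. RBR1 read 6.78, 6.77 and 6.77 in CL, against 7.09, 7.04 and 6.80 in CC, a log2 change of -0.20 (95% interval -0.44 to 0.04) that did not pass. RBR2 changed by -0.19 and did not pass, but passed at -0.50 (adjusted p = 0.0258) without CC replicate 3. The inhibitory kinase gene wee1 had a log2 change of -0.09 (95% interval -0.33 to 0.16) and the spindle checkpoint gene mad2 one of -0.07 (95% interval -0.33 to 0.19), and neither passed.

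The other cyclin genes on the named part of the array, cyc1, cyc2 and cyc3, were dim in both sections. Mean values were 2.66 in CL and 2.72 in CC for cyc1, 3.23 in CL and 3.31 in CC for cyc2, and 2.58 in CL and 2.73 in CC for cyc3. Ranked by mean brightness, cyc1 lay at percentile 5.47, cyc2 at 14.1 and cyc3 at 5.001 of the array, and none passed. Without scanner values, whether such signals exceed background was not tested. The values of cycD2 and cdc2 were thus called higher in CL while these 3 cyclin genes gave no detectable change at this brightness.

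**Figure D4:**
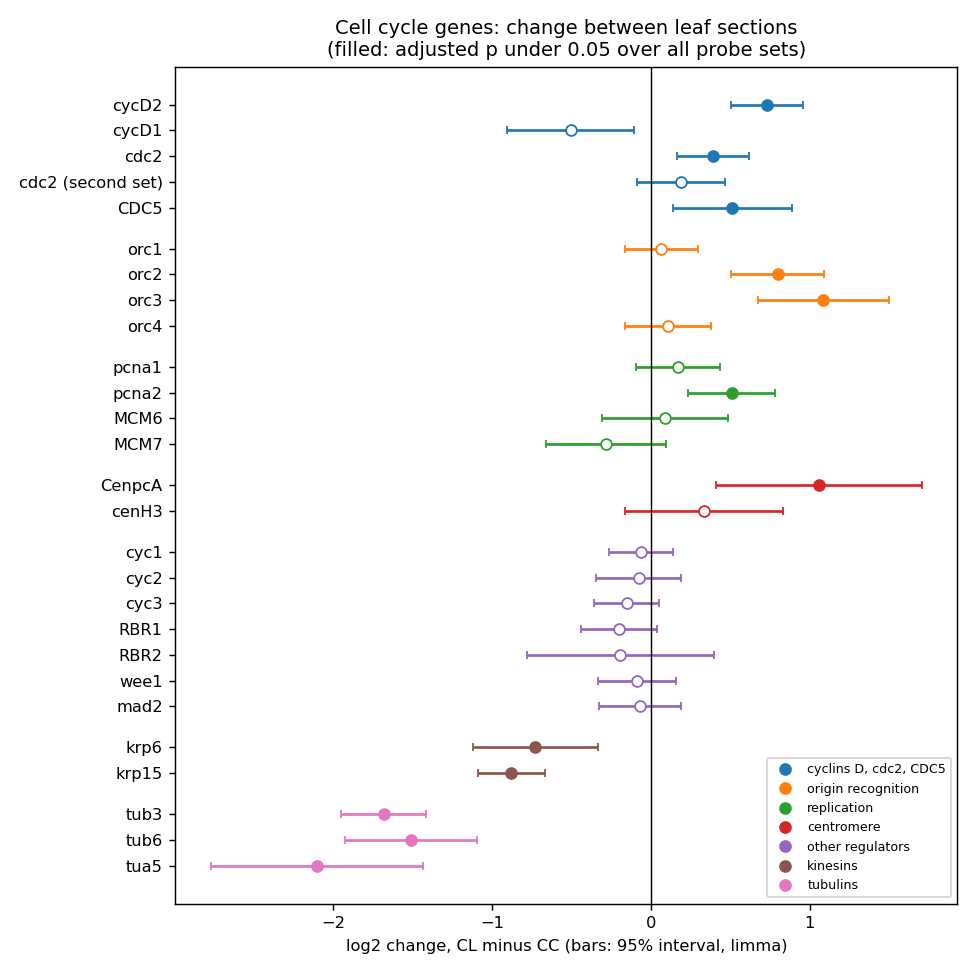
Log2 change, CL minus CC (horizontal axis), with 95% intervals, for the cyclin, cdc2 and CDC5 probe sets and for named genes of related lists, filled where the limma adjusted p was under 0.05. The intervals of cycD2, orc2 and orc3 start at 0.50 or higher, those from cyc1 to mad2 cross 0, and the points of the 3 tubulins lie at -1.51 or lower.

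Of 12 tubulin genes, which build the spindle and also the microtubules that guide wall growth, 0 rose, 8 fell and 4 did not pass, with a median log2 change of -0.73. Leading members by adjusted p were tub3 at 7.94 ± 0.16 in CL, against 9.63 ± 0.11 in CC, and tub6 at 5.46 ± 0.14 in CL, against 6.97 ± 0.34 in CC (n = 3 per section, SD). That is a log2 change of -1.51 for the brightest tub6 probe set. Its other probe sets fell less, by -0.71, -0.57 and -0.40, and the last did not pass (limma adjusted p = 0.0877). The gene tua5 changed by -2.10 (SE 0.28). Calls of these 3 tubulin genes held with any array left out. The 8 tubulin genes that fell changed opposite in sign to cycD2, while TUBG2 (0.27) and TUA1 (0.20) had positive changes that did not pass and are named after their values were seen. The difference from cycD2 was not tested.

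Of 8 genes matched to meristem and leaf base identity, 0 rose and 1 fell, with a median of -0.13, and 6 of the 8 had means under the 25th percentile of all probe sets. The homeobox gene lg4b changed by -0.32 (SE 0.09; limma adjusted p = 0.0310), with values of 3.48 ± 0.10 in CL, against 3.804 ± 0.03 in CC (n = 3 per section, SD). That call ended in 5 of the 6 fits with 1 array left out, with adjusted p up to 0.0900. The gene lg1, which sets the ligule boundary, changed by -0.42 and lg3 by -0.32, and neither passed. The meristem gene kn1 lay at the 19.4th percentile, with a change of -0.07.

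Of 23 cell type markers found, 3 rose, 5 fell and the others did not pass, so 34.8% were called, against 38.6% of all 1108 genes. Of 7 markers of dividing or meristem tissue that were found of 11 listed, 1 rose (pcna2), 0 fell and 5 had means under the 25th percentile. Their mean level per array was 3.95 to 3.98 in CL and 3.87 to 3.95 in CC. Of 5 mesophyll markers found of 8, ppt1 (log2 change 0.75) and pdlk1 (0.56), a kinase by name that matched through a synonym, rose. At their brightest probe sets, pep1 (0.05), pdk1 (0.05) and mdh6 (-0.05) did not pass. A second pdlk1 probe set (0.28) did not pass, and a dimmer pdk1 probe set (0.29) did. The mean level was 11.23 to 11.33 in CL and 10.91 to 11.09 in CC, a shift carried mainly by ppt1 and pdlk1. Of 3 bundle sheath markers found of 6, rca1 fell (-0.32), with 12.59 to 12.64 in CL and 12.72 to 12.77 in CC.

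Epidermis and wax markers, of which 5 of 8 were found, had 2 falls, gl1 (-1.73) and gl15 (-0.33), and mean levels of 5.64 to 5.85 in CL and 6.06 to 6.53 in CC. Of 5 genes listed as vascular, 3 were found, and sut1 (-0.87) and sps1 (-0.80) fell. Mean levels of this list were 8.02 to 8.55 in CL and 8.73 to 9.02 in CC. By name sps1 is a sucrose phosphate synthase gene, which need not mark vascular tissue, so the list is a weak measure of that tissue. Guard cell markers numbered 0 of 5. Calls of pdlk1, rca1, gl15, sut1 and sps1 ended in 3 to 5 of the 6 fits with 1 array left out, whereas those of ppt1 and gl1 held. The part of these shifts in the results for cycD1, cycD2, cdc2 and CDC5 was not tested.

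Genes whose values followed each of the 4 most closely over the 6 arrays were named as a description, with Pearson's r and no test. All 6 points come from 2 sections, and r was not split into parts between and within sections. For cycD2 they were aox1 (NCBI gene 542073; r = 0.999), an alternative oxidase, dps1 (0.998) and rps6-2 (0.996), a ribosomal protein gene by name. For cycD1 they were dhn1 (0.984), a dehydrin made during drying, expB8 (0.974), a beta-expansin of the cell wall, and incw3 (0.974), a cell wall invertase. The closest to cdc2 were elfa5 (0.973), PR-1 (0.953) and sip1 (0.951), and those to CDC5 were sig2A (0.994), DIP1 (0.992) and sdg118 (0.992). Of the 973 genes with an informative name that were searched, r was over 0.9 for 112 with cycD2, 102 with CDC5, 49 with cycD1 and 33 with cdc2.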

How the data were processed

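The authors deposited log2 values made with RMA. Per the submitters' processing notes, limma and Affymetrix Expression Console were also used; no version is given in the sources used here. The table held 17555 probe sets for 6 arrays, and 0 columns of sample values were unused. No scanner file was used, so signal over background is unknown. Names came from a dated annotation of the platform, joined by NCBI gene ID to a RefSeq table (1452 with 1 gene, 1 with several, 16102 unnamed here; 1060 of 1108 genes matched). Each gene takes the value of its brightest probe set on average.

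The CL minus CC contrast was fitted by limma (version 3.58.1, R 4.3.3) with no block, filter or weights; SE and 95% intervals are moderated. On simulated data with 200 of 17555 probe sets changed, this fit recovered 24.8% of log2 changes of 0.5 and 77.2% of changes of 1. A far larger share was called in the real data (15.9% higher and 15.2% lower in CL). The adjusted threshold depends on that share, so these rates do not describe recovery in the real data. The genes and lists were chosen with earlier results of these data known, and lists were matched by symbol or synonym. Named genes were the 4 genes, the origin recognition genes, the 3 smallest p of each other list, the cell type markers (named where they passed or stand for dividing tissue), and the 3 most alike by Pearson's r; others were added for their role or after their values were seen. No pair of arrays was a duplicate (SD of log2 differences within sections 0.251 to 0.387). Deviations of same-numbered arrays from their section means correlated at -0.54, -0.35 and -0.39. With 3 arrays per section this check cannot decide whether same-numbered sections came from the same plants, which the sample titles do not say. Alternatives covered the block, variance prior, scaling, dim filters, adjustment, probe set averaging, array weights, threshold and arrays left out.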

Additional observations from a re-analysis of the deposited data

How the results depend on the processing

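The change of cycD2 kept its direction and its call under all 18 alternatives, with changes of 0.64 to 0.77 on the log2 scale. The change of cycD1 passed with median centring (-0.55), with adjustment over genes (-0.50), with array weights (-0.38) and, in an alternative added after seeing the data, without replicate 1 of both sections (-0.62). It ran from -0.66 to -0.33 when single arrays were left out, and it has no value without the dimmest 50% of probe sets. The call of cdc2 was lost with the replicate block (0.39, adjusted p = 0.0698), at an adjusted p of 0.01 (0.39), with the mean of its probe sets (0.29) and without replicate 1 of both sections (0.36), and the change was 0.35 to 0.45 with single arrays left out. The call of CDC5 was lost with the replicate block (0.51, adjusted p = 0.131), at an adjusted p of 0.01 (0.51), with median centring (0.47) and with a further quantile normalization (0.43), and the change was 0.40 to 0.64 with single arrays left out. The number of cyclin, cdc2 and CDC5 probe sets higher in CL was 1 with the replicate block and at 0.01, and 1 to 3 with single arrays left out. The number lower in CL was 1 with median centring, adjustment over genes, array weights and without replicate 1 of both sections, and 0 to 1 with single arrays left out. The sample titles do not say whether same-numbered sections share plants, so the calls of cdc2 and CDC5 lost under the block remain a limit.

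Over all probe sets, 1020 were higher and 850 lower in CL with the replicate block, 1126 and 867 at an adjusted p of 0.01, and 4388 and 4940 with array weights. Of 1108 genes adjusted alone, 218 were higher and 247 lower, and without the dimmest 50% of probe sets 1656 were lower. With single arrays left out, 1308 to 2818 were higher and 1082 to 2865 lower. The difference between the changes of cycD2 and cycD1 was 1.23 with the replicate block and 0.999 to 1.41 with single arrays left out.

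Signs of 15 of the 698 other values turned, none of them for a gene that passed over all 6 arrays. With a further quantile normalization cyc1 was 0.0269, mad2 0.0462, cyc2 0.0483, wee1 0.021 and kn1 0.0589. With array weights mad2 was 0.0711, MCM6 -0.0657, wee1 0.0645 and kn1 0.01. Without replicate 1 of both sections RBR2 was 0.027 and cyc2 0.0611. With single arrays left out, mad2 ran from -0.134 to 0.0217, MCM6 from -0.0345 to 0.257, cyc2 from -0.149 to 0.0276 and orc1 from -0.01 to 0.11. Calls were lost in 63 and gained in 12 of those values. The number of arrays limits the precision, and signal over background at the dim end is unknown.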
